A study of Mus musculus with 2931 samples.

Results

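Leukocyte adhesion molecules are surface proteins with which the cells lining blood vessels catch and hold passing white blood cells. They were described here by 7 mouse genes picked by symbol: the selectins Sele and Selp, the sialomucins Cd34 and Madcam1, and the integrin ligands Icam1, Icam2 and Vcam1. A row was present for 6 of the 7 genes among the 18072 symbols of the count table, and Madcam1, for which no row was found under its symbol, is not analysed here. The values are read counts of 2931 single endothelial cells (EC), sorted from distal mouse lung and sequenced one by one. The mice fall into 5 groups of 1 female and 1 male mouse each. The late embryonic day E18.5 and postnatal days 1, 7 and 21 (P1, P7 and P21) carry the treatment label normal. The remaining group is P7 under hyperoxia, the breathing of gas with raised oxygen. The strain, the oxygen level and the length of exposure are not given in the sources used here. It is not stated either if each mouse name was 1 animal or pooled animals, so n counts mouse names, and the mice of a group are spoken of by sex. Every cell also carries 1 of 10 subtype labels that the authors assigned.

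White blood cells leave the blood in steps. Selectins bind sugar-bearing mucins and let the cells roll along the vessel wall, chemokines then activate leukocyte integrins, and the integrins grip ICAM and VCAM proteins before the cells pass between or through EC. In most tissues this takes place in small veins after an inflammatory signal, through which genes such as Sele, Icam1 and Vcam1 are switched on by the factor NF-kB, whereas in the lung many white blood cells are held in the narrow capillaries themselves.

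In the GENCODE M21 annotation of build GRCm38, Sele (E-selectin) lies on chr1:164048234-164057677 on the plus strand. Selp (P-selectin) follows on the same strand at chr1:164115264-164150026, 57586 bases beyond the end of Sele. Cd34 lies on chr1:194938819-194961279 on the plus strand, Icam1 on chr9:21015985-21028817 on the plus strand, Icam2 on chr11:106377656-106388075 on the minus strand and Vcam1 on chr3:116109949-116129688 on the minus strand. In that annotation 4 of the 6 genes (Selp, Cd34, Icam1 and Vcam1) overlap a predicted gene on the opposite strand. The 250 bases before the RefSeq start are printed for Icam1 and Sele, whose highest mean levels were both in venous EC, and for Selp, the neighbour of Sele. They are read 5′ to 3′ on the plus strand of GRCm38.p6, at chr9:21015690-21015939, chr1:164047984-164048233 and chr1:164115014-164115263. Capitals mark matches to GGANNTTCC, one form of the NF-kB motif, where N is any base, which was searched on both strands and chosen after these sequences had been seen.
Icam1: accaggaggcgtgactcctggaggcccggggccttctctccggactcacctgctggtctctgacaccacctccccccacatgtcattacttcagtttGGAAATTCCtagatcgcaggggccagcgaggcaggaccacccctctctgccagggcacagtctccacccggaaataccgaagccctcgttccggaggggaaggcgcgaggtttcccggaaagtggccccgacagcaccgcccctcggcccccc
Sele: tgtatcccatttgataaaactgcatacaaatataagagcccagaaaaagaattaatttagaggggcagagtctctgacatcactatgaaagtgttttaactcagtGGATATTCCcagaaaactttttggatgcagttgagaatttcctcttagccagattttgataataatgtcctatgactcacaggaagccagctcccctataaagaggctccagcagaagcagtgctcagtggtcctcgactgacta
Selp: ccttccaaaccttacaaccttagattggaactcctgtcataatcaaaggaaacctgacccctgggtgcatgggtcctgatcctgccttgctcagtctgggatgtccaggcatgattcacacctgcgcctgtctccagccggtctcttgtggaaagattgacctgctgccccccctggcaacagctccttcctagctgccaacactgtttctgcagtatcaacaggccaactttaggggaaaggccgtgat
Icam1 held 1 match, 153 to 145 bases before the start, and Sele held 1 match, 145 to 137 bases before it. These letters were not found in the Selp window. Over all 32851 promoter windows of the same length, 3.59% held a match. RefSeq entries were present for 5 of the 7 genes.

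Totals per mouse lay between 56564316 reads (P7 male) and 331392982 reads (P7 female), and a cell had a median of 621406 reads. For each mouse with at least 8 cells of a label, their reads were added up and are given as CPM, the reads of a gene per 1000000 reads of that sum. The labels carried their markers, which is no independent check, since the labels were made from the expression of these cells. Slc6a2, a venous marker, was read in 63.2% of venous EC and in 0% of both arterial labels, and Gja5 in 76.3% of arterial EC I. Car4 was read in 98.2% of Car4+ capillaries, but also in 27.0% of Early and 32.6% of Late Car4- cells. Most cells came from a CD31 sort, and sequencing runs were shared by only some mice. No run held both P1 and P7 cells of the CD31 sort, so run and age cannot be told apart there. The P7, hyperoxia and P21 males shared 1 run, and their values in that run are given beside the results.

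Per kilobase of exon, which allows genes to be compared, Icam2 had the highest level of the 6 genes over all cells of a mouse, at 853 ± 253 RPKM, reads per kilobase and 1000000 reads (SD, n = 10). Cd34 followed at 150 ± 80.6 and Icam1 at 38.1 ± 27.5. The levels of Vcam1 (2.20 ± 2.26), Sele (1.72 ± 1.80) and Selp (1.27 ± 1.26) did not differ beyond their spread. Icam2 and Cd34 were read in 92.7% and 85.4% of all cells and Icam1 in 33.9%. Vcam1 was read in 18.7% of cells, Selp in 2.66% and Sele in 1.30%. The genes thus fell into a pair read in most EC, 1 gene read in a minority of them, and 3 genes read in few cells.

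E-selectin is made by EC only after activation in most vessels. In venous EC the level of Sele ranged from 0 to 98.3 CPM over 9 mice, with a median of 17.9 CPM and a mean of 27.3 ± 32.9 CPM. The hyperoxia male had the highest value and the P21 female the next, at 54.3 CPM, while the E18.5, P1 and P7 females were at 0. No read of Sele was found in 332 Car4+ capillary cells, 96 arterial EC I cells or 82 lymphatic EC. In the Car4+ sum of 242972248 reads, 3 reads would have given 0.0123 CPM. Early and Late Car4- capillaries held 3 reads each in 841 and 622 cells. Outside the venous label Sele was read in nonproliferative embryonic EC, at 3.84 and 4.99 CPM in the female and male E18.5 mice, and in the 1 mouse with enough arterial EC II, at 8.30 CPM. In proliferative EC the E18.5 female had 2.58 CPM, from 254 reads, and no other mouse more than 0.0375 CPM. Within the venous label Sele was read in 6 of 9 mice.

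P-selectin is stored in EC and platelets and brought to the surface within minutes of activation. Selp ranged from 0 to 295 CPM in venous EC, with a median of 3.87 CPM and a mean of 50.7 ± 103 CPM (SD, n = 9). The P21 and P1 females stood at 295 and 144 CPM, and the highest of the other mice had 6.51 CPM. Without the P21 female the mean was 20.2 CPM. Arterial EC II of the P1 male, the 1 mouse with at least 8 such cells, had 51.7 CPM. In Car4+ capillaries 3 reads of Selp were found in all, and their highest mouse had 0.0671 CPM. Venous EC and arterial EC II thus held the highest Selp levels, and arterial EC I followed far below at 2.00 ± 4.27 CPM (n = 7).

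CD34 is a sialomucin of EC and of blood progenitors that serves as a ligand for L-selectin when it carries the right sugars. Car4+ capillaries had the highest Cd34 level, from 1045 to 4982 CPM over 8 mice, with a median of 2242 CPM and a mean of 2318 ± 1239 CPM. Early Car4- capillaries followed at 1369 ± 836 CPM (n = 6) and proliferative EC at 1116 ± 578 CPM (n = 8). Venous EC had 290 ± 276 CPM (n = 9), and lymphatic EC had the lowest level, 68.2 ± 78.9 CPM (n = 4). Each label overlapped with the next higher one in this order, so the order of neighbours is not resolved, while the lowest Car4+ value lay above the highest venous value of 968 CPM.

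ICAM-2 is the integrin ligand that resting EC carry all the time. Icam2 was highest in Car4+ capillaries, from 2094 to 6056 CPM over 8 mice, with a median of 3246 CPM and a mean of 3625 ± 1266 CPM. The next label with several mice, Early Car4- capillaries, had 1589 ± 657 CPM (n = 6). Venous EC, arterial EC I and proliferative EC had 1281 ± 376, 1238 ± 442 and 1146 ± 212 CPM and overlapped with each other. Lymphatic EC had the lowest level, 499 ± 251 CPM (n = 4). The Car4+ mice lay above the 1 arterial EC II value of 1768 CPM, and their range overlapped with that of Early Car4- capillaries, whose P1 male had 2897 CPM.

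ICAM-1 is the inducible counterpart, with a low level in resting EC of most organs and a higher one in lung. Icam1 was highest in venous EC, from 88.0 to 1149 CPM over 9 mice, with a median of 401 CPM and a mean of 540 ± 416 CPM. Car4+ capillaries followed with 1.34 to 592 CPM over 8 mice, a median of 325 CPM and a mean of 299 ± 242 CPM. Early Car4- capillaries had a median of 60.7 CPM and arterial EC I of 83.9 CPM. All of these ranges overlapped. Within the P7 female the Late Car4- label held 1.33 CPM of Icam1 and the Early Car4- label 66.3 CPM, whereas the Late Car4- cells of the P21 mice had 114 and 94.7 CPM.

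VCAM-1 binds the integrin VLA-4 of lymphocytes, monocytes and eosinophils and is low in resting EC. Vcam1 ranged from 0.116 to 882 CPM in venous EC, with a median of 22.1 CPM and a mean of 144 ± 284 CPM (n = 9). The P21 female had the highest value and the mean without it was 52.1 CPM. The P1 female, the E18.5 male and the P7 male followed at 187, 111 and 86.4 CPM. In Car4+ capillaries Vcam1 never exceeded 0.618 CPM, and in Early Car4- capillaries 1.69 CPM. Arterial EC II had 18.2 CPM in the 1 mouse with enough cells, the P1 male, which held 9 of the 42 cells. Over all mice, the 42 arterial EC II cells held 5622 Vcam1 reads of 41474201. The 203 venous EC held 24437 of 183649466, a similar share. In arterial EC II, 6 cells held 5365 of the Vcam1 reads. The plot of levels by label shows the venous values of Vcam1 spread over most of its range.

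**Figure D1:**
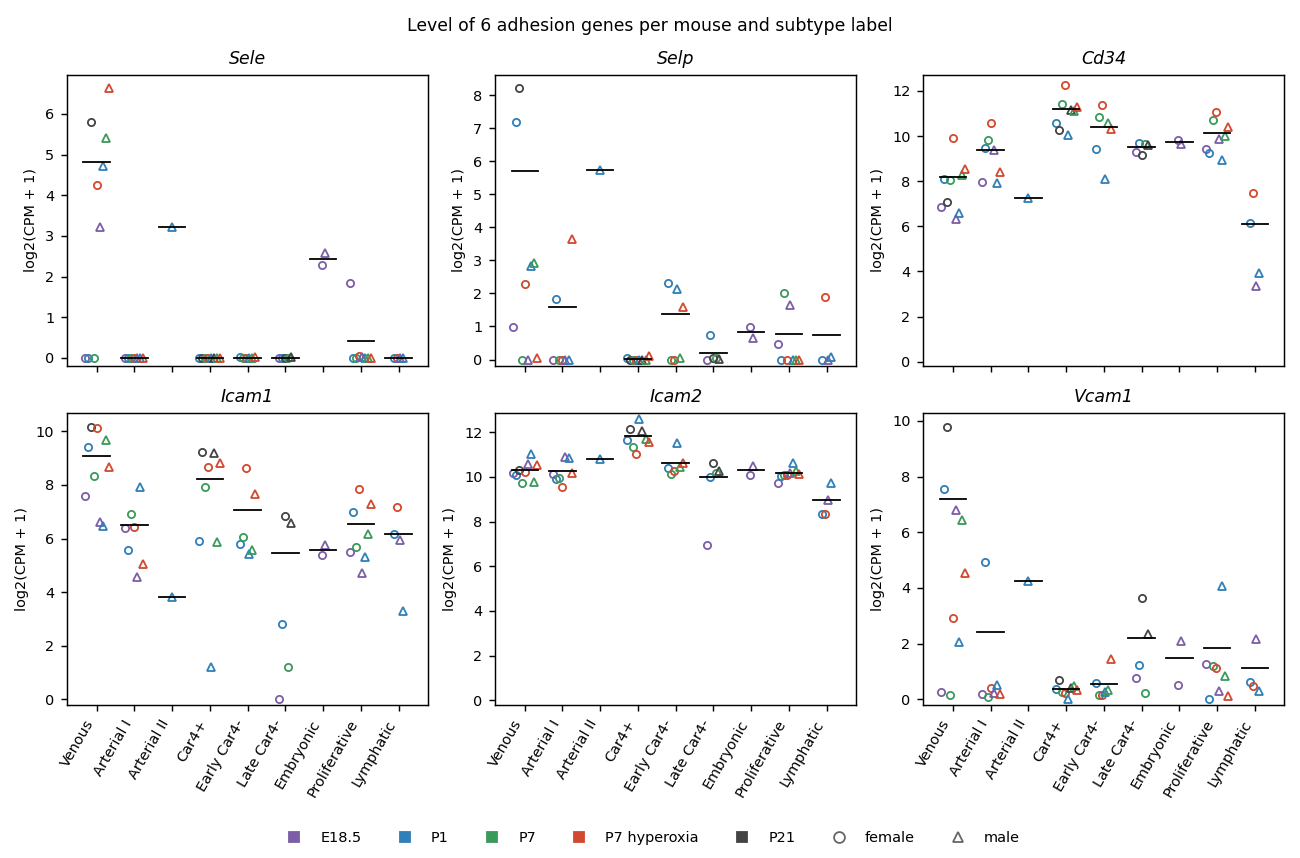
Level of 6 adhesion genes per mouse, as log2(CPM + 1) on the vertical axes, by subtype label on the horizontal axes; each point is 1 mouse with at least 8 cells of the label, colour gives the group, circles are female and triangles male mice, and black lines mark the mean CPM on the same scale. Cd34 and Icam2 are read in every label and highest in Car4+ capillaries (means 2318 and 3625 CPM), with Cd34 at a mean of 290 CPM in venous EC. Sele, Selp and Vcam1 have no capillary mean above 3.56 CPM.

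To compare cells of unlike depth, each cell was thinned to 50000 reads, and 11 shallower cells were left out. After thinning Icam1 was read in 75.1% of 201 venous EC (95% exact interval 68.6 to 80.9%), against 81.1% before it, and in 45.2% of Car4+ capillary cells (39.7 to 50.7%). It was read in 29.7% of Early Car4- and 15.1% of Late Car4- cells. Intervals cover counting error only, not the spread between mice, and reads without molecular identifiers are not independent molecules. Pooled over mice, Icam1 was thus read in a majority of venous EC and in a minority of each capillary label. By mouse, the share exceeded 50% in Car4+ cells of the P21 female (66.7%), the P21 male (50.6%) and the hyperoxia male (62.2%), and in Car4- cells of the hyperoxia female (60.1%).

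Among labels of over 10 cells, the rarer genes had their largest shares of cells with a read in venous EC and arterial EC II. For Vcam1 arterial EC II came first here, unlike in the levels per mouse. Sele was read in 7.46% of thinned venous EC (4.24 to 12%) in 7.14% of arterial EC II (1.50 to 19.5%) and in 2.25% of embryonic EC, and in 0 of 332 Car4+ cells, which at 3 cells of the total allows a share of cells with a read of up to 0.904%. Selp was read in 7.46% of venous EC and in 19% of 42 arterial EC II cells (8.60 to 34.1%), against 2.15% of arterial EC I. Vcam1 was read in 16.9% of venous EC and 33.3% of arterial EC II (19.6 to 49.5%), against 1.08% of arterial EC I and 2.71% of Car4+ cells. The intervals of the arterial labels did not overlap for either gene, but they pool cells of several mice and cover counting error only.

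**Figure D2:**
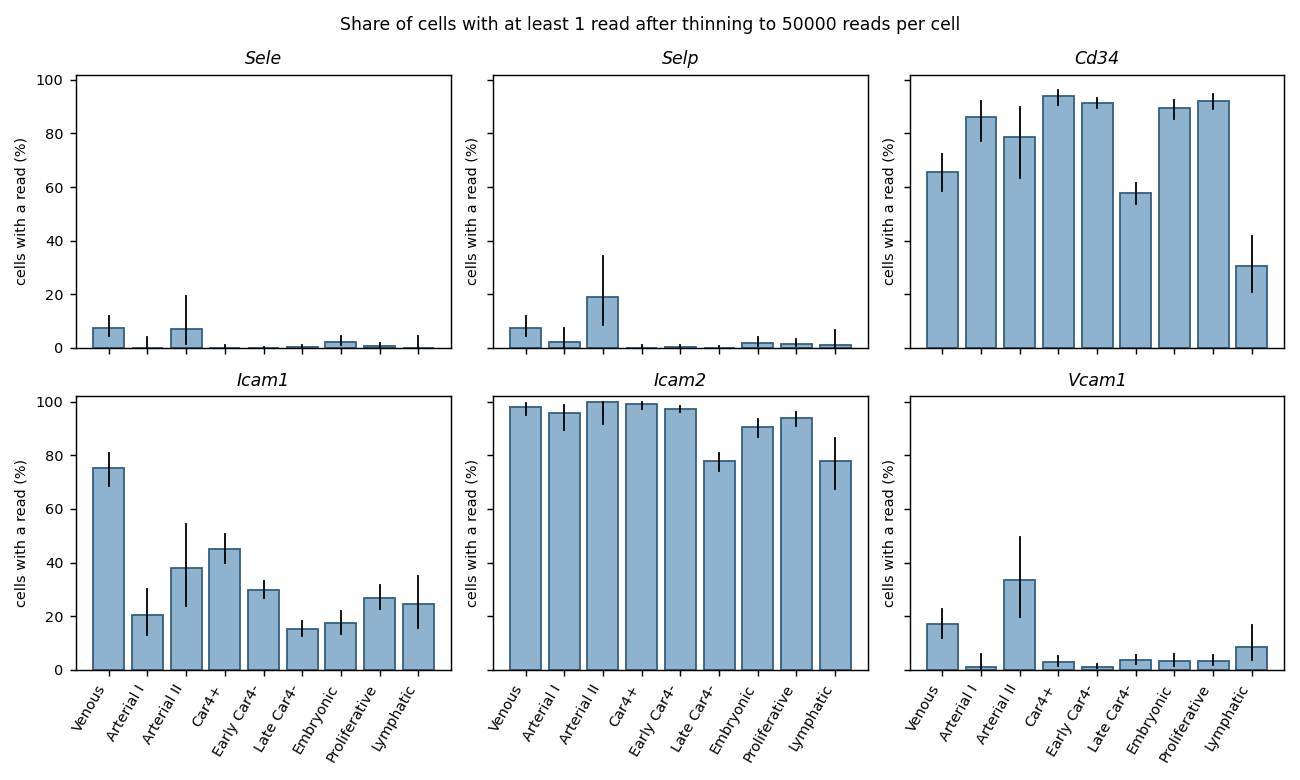
Share of cells (%) with at least 1 read of each gene after thinning to 50000 reads per cell, by subtype label; bars pool the cells of all mice and lines are exact 95% binomial intervals. Icam2 is read in 77.8% to 100% of the cells of each label, Icam1 among labels of over 10 cells peaks in venous EC at 75.1%, and Sele, Selp and Vcam1 stay at 33.3% or lower.

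The reads of the rare genes sat in very few cells. For Sele, 4 cells held over 50% of its 9692 reads and 13 cells 90% of them. Selp also had its first 50% of 10477 reads in 4 cells, and Vcam1 had 50% of 35470 reads in 5 cells. Icam1 needed 103 cells, Cd34 329 and Icam2 413 cells for the same share. The cell with most Sele reads, 18.2% of all, was an embryonic EC of the P1 male, and those with most Selp (21.6%) and Vcam1 (16.2%) were venous EC of the P21 female. Some levels per mouse rested on 1 cell, which in the P1 male held all 1475 venous Sele reads and in the E18.5 male 993 of 994 venous Vcam1 reads. Others did not, as in the P21 female, where 11 of 13 venous EC had Vcam1 reads and the top cell held 46.2% of them.

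**Figure D3:**
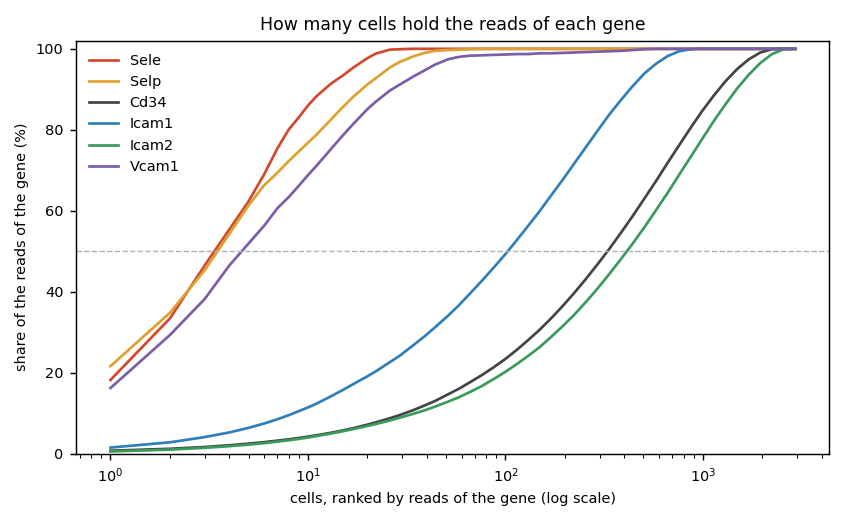
Share of the reads of a gene (%, vertical axis) held by the cells with most of them, ranked from the highest (horizontal axis, log scale, all 2931 cells); the dashed line marks 50%. Sele, Selp and Vcam1 cross 50% within 5 cells, Icam1 at 103 cells, Cd34 at 329 and Icam2 at 413.

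Most cells rich in these genes had venous marker reads, and most arterial ones too, where a read of any marker of a list counted. All 15 cells with at least 100 Sele reads had a read among the 4 venous markers, with a median summed level of 2101 CPM. Platelet marker reads were present in 4 of these 15 cells, at up to 897 CPM. Such reads were not particular to these cells. In sums per mouse the venous markers had a median of 3646 CPM in venous EC, 787 CPM in lymphatic EC and 678 CPM in arterial EC I. The 19 cells with at least 100 Selp reads all had venous marker reads too, with a median of 1537 CPM. The 5 arterial markers were read in 17 of these 19 cells, with a median of 683 CPM, and 5 of the 19 carried the arterial EC II label. The 4 platelet markers were read in 2 of the 19 cells, with a highest summed level of 2.97 CPM. Immune markers were read in 5 of the 19 cells and had a median of 0 CPM. Among the 40 cells with at least 100 Vcam1 reads, 38 had venous, 33 arterial and 6 immune marker reads, and 6 carried the arterial EC II label. Arterial markers were also read in 11 of the 15 Sele-rich cells.

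Adhesion genes shared cells within the venous label. Of the 15 thinned venous EC with Sele, all 15 had Icam1, 4 had Selp and 4 had Vcam1. Of the 15 with Selp, 8 had Vcam1 (53.3%), against 16.9% of all venous EC, and 12 had Icam1. Of the 34 with Vcam1, 29 had Icam1 (85.3%), against 75.1% of all. Since these cells came from several mice with unlike levels, and deeper or richer cells hold more reads of any gene, the shares are given as a description.

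**Figure D4:**
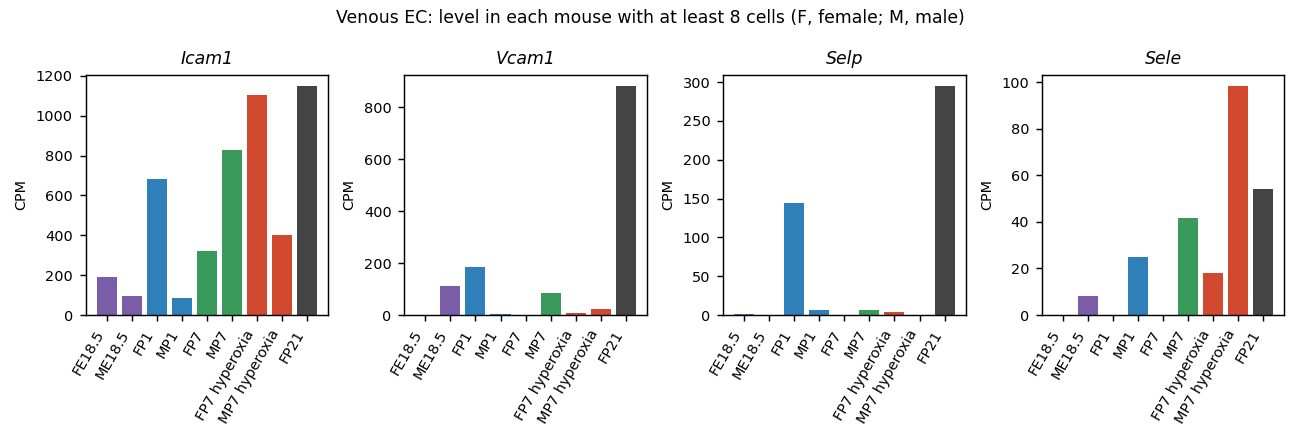
Level in venous EC (CPM) of Icam1, Vcam1, Selp and Sele in each of the 9 mice with at least 8 venous cells; bars are single mice coloured by group, with F for female and M for male. Icam1 is above 0 in all 9 mice, while the P21 female stands highest for Icam1 (1149), Vcam1 (882) and Selp (295) and the hyperoxia male for Sele (98.3).

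Subtypes were then compared within mice, by an edgeR model that held a term for each mouse. The labels were made from the expression of these same cells, so these p-values are not independent of the labels. Cd34 was lower in venous EC than in Car4- capillaries (the Early and Late labels together) in 8 of 8 mice, at 316 ± 282 against 1175 ± 766 CPM. Its log2 difference was -1.98 (SE 0.22, edgeR adjusted p = 0.00106). It was the 1 member called of 5 tested, where 3.23% of 11678 genes were called. Icam1 was higher in venous EC in 8 of 8 mice, at 595 ± 408 against 113 ± 128 CPM, but with an adjusted p of 0.0629 by edgeR it was not called. Vcam1 was higher in 6 of 8 mice and had an adjusted p of 0.0747 by edgeR. Selp was higher in 6 of 8 mice (edgeR adjusted p = 0.387), and Icam2 higher in 1 of 8 (edgeR adjusted p = 0.959). DESeq2 called 5 members, Cd34, Sele, Selp, Icam1 and Vcam1, and limma 2, Cd34 and Icam1. Of all genes DESeq2 called 1771 and limma 673. Without the E18.5 female edgeR called 3, Cd34, Icam1 and Vcam1.

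Against Car4- capillaries, Car4+ capillaries were higher in Icam2 and Cd34. Icam2 stood at 3625 ± 1266 against 1541 ± 570 CPM and was higher in 8 of 8 mice, with a log2 difference of 1.44 (SE 0.14, edgeR adjusted p = 6.25e-05). Cd34 stood at 2318 ± 1239 against 1179 ± 763 CPM and was higher in 8 of 8 mice, with a log2 difference of 1.32 (SE 0.14, edgeR adjusted p = 0.000102). These were 2 of 4 tested members, and 9.04% of 11858 genes were called. Without the mouse as a term the Cd34 call was lost (edgeR adjusted p = 0.0676), while Icam2 kept it. Icam1 was higher in Car4+ capillaries in 7 of 8 mice, with an adjusted p of 0.401 by edgeR. Without the P1 male edgeR called Icam1 as well (adjusted p = 0.0242). With no filter on low counts it called Selp as lower (adjusted p = 0.0333), on 3 reads in Car4+ capillaries.

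Arterial EC I were set against both. Between arterial EC I and Car4- capillaries 0 of 3 tested members were called by edgeR, where 0.0760% of 10527 genes were. Cd34 alone had p under 0.05 unadjusted, as had 6.50% of genes. By DESeq2 and limma 0 members were called, against 1340 and 42 genes. Between venous EC and arterial EC I, edgeR also called 0 of 3 tested members, where 1.56% of 9891 genes were called. There Icam1 was higher in venous EC in 6 of 7 mice, at 412 ± 369 against 90.5 ± 75.5 CPM (edgeR adjusted p = 0.159), and Cd34 lower in 6 of 7, at 310 ± 311 against 665 ± 459 CPM (edgeR adjusted p = 0.0933). Unadjusted p-values were under 0.05 for 2 members and 10.5% of genes. DESeq2 called 3 members, Cd34, Icam1 and Vcam1, among 1656 genes, and limma 1, Icam1, among 395. Without the P1 male edgeR called Icam1 (adjusted p = 0.0206), and without the hyperoxia male it called Cd34 (adjusted p = 0.0487). Sele was read in 4 of 7 mice in venous EC and in none in arterial EC I.

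Age was examined next, in Car4- capillaries first. How many of all genes had ages without overlap was not counted, so lack of overlap between 2 mice and 2 mice has no background here. Cd34 stood at 700 and 279 CPM in the female and male P1 mice, 1690 and 1544 CPM at P7 and 568 and 778 CPM at P21. The P7 mice lay above both neighbours in age, with a log2 difference of 1.68 (SE 0.47, edgeR adjusted p = 0.385) from P1 and of -1.13 (SE 0.47, edgeR adjusted p = 0.433) from P7 to P21. For the male pair within 1 run, Cd34 was 1321 CPM at P7 and 682 CPM at P21. The label mix of the class differed between the ages: the female and male mice had 160 and 120 Early against 21 and 2 Late cells at P1, 162 and 114 against 44 and 2 at P7, and 4 and 3 against 268 and 265 at P21. Among Early cells alone Cd34 had 690 and 277 CPM at P1 and 1817 and 1533 CPM at P7. Late cells of the P7 female had 812 CPM, against 575 and 774 CPM in the P21 mice, so from P7 to P21 the label mix and age cannot be told apart in the class as a whole. Icam1 was 51.6 and 41.7 CPM at P1, 58.1 and 47.7 CPM at P7 and 113 and 93.2 CPM at P21. Only the P21 mice lay apart, with a log2 difference of 1.07 from P7 (SE 0.40, edgeR adjusted p = 0.384; 0.43 with limma), and the male pair within 1 run had 61.0 and 86.9 CPM. The thinned shares of Car4- cells with an Icam1 read overlapped, at 11.7% and 26.5% at P7 and 19.9% and 13.4% at P21, while the median level in cells with a read was 320 and 160 CPM and 440 and 480 CPM.

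Selp and Vcam1 values also lay apart between 2 ages each in Car4- capillaries, on few cells. Selp had 3.77 and 3.38 CPM at P1 and 0.00542 and 0.0342 CPM at P7, from 645 and 2 reads. The ratio of P1 to P7 was 380 with a 95% counting interval of 105 to 3141. That interval treats each read as independent, which reads without molecular identifiers are not. It also leaves out the spread between cells and mice. The fitted log2 difference of P7 from P1 was -7.84 (SE 3.12, edgeR adjusted p = 0.406). Over the alternatives it lay between -9.18 and -1.84, the latter with limma. Single cells held 64.8% and 97.0% of the P1 reads in the female and male mouse. The summed level of the 4 platelet markers in these sums was 30.7 and 119 CPM at P1 and 16.6 and 142 CPM at P7 and overlapped between the days; their part in the Selp result was not tested. Vcam1 had 0.125 and 0.239 CPM at P7 and 11.3 and 4.05 CPM at P21, with a log2 difference of 5.50 (SE 2.11, edgeR adjusted p = 0.408), which was 3.38 with limma. At P21, 1 cell held 70.0% of the reads in the female mouse and 92.0% in the male.

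None of these Car4- differences was called by edgeR. From P1 to P7 it called 0 of 5 tested members and 0% of 14660 genes, and 2 members and 11.3% of genes had p under 0.05 unadjusted. DESeq2 called 2 members, Selp and Cd34, among 446 genes, and limma 0. From P7 to P21 edgeR called 0 of 5 tested members and 0.266% of genes. Unadjusted, 3 members and 10.5% of genes had p under 0.05. DESeq2 called 1 member, Vcam1, among 804 genes, and limma 0 members.

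In Car4+ capillaries the P21 mice had the highest Icam1 values, without a call. Icam1 had 58.8 and 1.34 CPM at P1, 244 and 58.1 CPM at P7 and 592 and 584 CPM at P21. The P21 mice lay above both P7 mice, with a log2 difference of 1.99 (SE 1.05, edgeR adjusted p = 0.858; 3.16 without the P7 female), and the male pair within 1 run had 132 and 401 CPM. After thinning, 23.7% and 5.88% of Car4+ cells had an Icam1 read in the P1 mice, 38.1% and 41.7% at P7 and 66.7% and 50.6% at P21. Cd34 had 1550 and 1045 CPM at P1, 2754 and 2205 CPM at P7 and 1224 and 2280 CPM at P21. The P7 and P1 mice did not overlap, with a log2 difference of 1.08 (SE 0.47, edgeR adjusted p = 0.730), and the P21 mice overlapped with those of P7.

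Icam2 had 3223 and 6056 CPM in Car4+ capillaries at P1, 2573 and 3268 CPM at P7 and 4574 and 4185 CPM at P21, and the P21 mice lay above both P7 mice. From P1 to P7, 2 members and 6.28% of genes had an unadjusted p under 0.05. EdgeR called 0 of 4 tested members there and 0% of 12284 genes. Without the P1 female, which leaves P1 with 1 mouse whose spread is taken from the other groups, it called Icam1 (adjusted p = 0.0192). From P7 to P21 it called 0 of 4 and 0.00814% of genes, and 0 members had p under 0.05 unadjusted. DESeq2 and limma called 0 members in both.

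In venous EC the spread between the mice of a day was wide. Icam1 had 189 and 96.7 CPM in the E18.5 mice, 682 and 88.0 CPM at P1 and 321 and 827 CPM at P7 in the female and male mice, and 1149 CPM in the P21 female. The E18.5, P1 and P7 mice overlapped with those of the next age, and the 1 P21 mouse lay above both P7 mice (this step was not tested). Selp had 144 and 6.16 CPM at P1 and 0.975 and 0 CPM at E18.5, without overlap, with a log2 difference of 6.90 (SE 3.16, edgeR adjusted p = 0.555). Over the alternatives it lay between 3.59, without the P1 female, and 13.53, without the E18.5 female. The E18.5 value came from 10 reads in 1 cell, and in the P1 female 1 cell held 87.5% of the reads. Cd34 had 114 and 78.6 CPM in the E18.5 mice, 273 and 94.7 CPM at P1 and 263 and 308 CPM at P7. EdgeR called 0 of 6 members from E18.5 to P1, where 0.0162% of 12326 genes were called. There 1 member and 8.71% of genes had an unadjusted p under 0.05. From P1 to P7 edgeR called 0 of 6 members and 0% of genes, and 0 members had an unadjusted p under 0.05. DESeq2 and limma called 0 members in both.

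Around birth, nonproliferative embryonic EC at E18.5 were set against Car4- capillaries at P1. Age and label differ together in this comparison and cannot be told apart. The P1 female and male also had 2 and 3 cells of the embryonic label, of which 1 cell each held 858 and 1764 Sele reads. Sele had 3.84 and 4.99 CPM in the E18.5 mice and 0.0122 and 0 CPM at P1, from 1051 reads and 1 read. The ratio was 819 with a 95% counting interval of 147 to 32392, which again treats reads as independent and leaves out the spread between cells and mice. The log2 difference was 9.32 (SE 2.85, edgeR adjusted p = 0.297), with values between 2.98 (limma) and 12 (without the P1 female) over the alternatives. Single cells held 78.8% and 96.0% of the E18.5 reads in the female and male mouse. Selp went the other way, from 0.991 and 0.555 CPM to 3.77 and 3.38 CPM, a log2 difference of -2.30 for E18.5 against P1 (SE 2.29, edgeR adjusted p = 0.831), which was -0.19 with thinned cells and -0.11 with limma. Icam1 was level between them, at 47.1 ± 8.89 and 46.6 ± 6.99 CPM (SD, n = 2). Of 6 members edgeR called 0, and of 14967 genes 0.494%, and 1 member and 9.42% of genes had p under 0.05 unadjusted. By DESeq2 and by limma 1 member was called, Sele, among 640 and 57 genes.

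Proliferative EC, a label of cycling cells, had Icam1 at 44.7 and 25.3 CPM at E18.5 and 49.9 and 70.8 CPM at P7. Cd34 had 686 and 946 CPM at E18.5 and 1680 and 1026 CPM at P7. Both genes were thus higher in both P7 mice, but with log2 differences under 1 in size. Among 5 tested members edgeR called 0, and among 13102 genes 0.0458%, and for 0 members was the unadjusted p under 0.05. DESeq2 and limma called 0.

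Hyperoxia at P7 was compared with P7 under the normal label, and Icam1 was the member whose groups lay apart in 3 of 4 classes. How many of all genes lay apart in the same way was not counted. In Car4- capillaries Icam1 had 58.1 and 47.7 CPM in the normal female and male and 396 and 195 CPM under hyperoxia. Both hyperoxia mice lay above both normal mice, with a log2 difference of 2.44 (SE 0.41, unadjusted p = 5.25e-05, edgeR adjusted p = 0.128). The males, which shared a run, had 61.0 and 195 CPM within it. After thinning, 11.7% and 26.5% of the Car4- cells of the normal mice had an Icam1 read, against 60.1% and 45.5% under hyperoxia. Among cells with a read the median level was 320 and 160 CPM in the normal mice and 500 and 300 CPM under hyperoxia. The shares did not overlap between the groups, whereas these medians did. Among Early Car4- cells alone, Icam1 had 66.3 and 46.6 CPM in the normal mice and 394 and 200 CPM under hyperoxia.

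Whether this difference was called depended on the setting, and 4 of 15 alternatives called it. EdgeR called 0 of 5 tested members, where 0.0136% of 14660 genes were called. An unadjusted p under 0.05 was found for 1 member and 5.52% of genes, and DESeq2 called 238 genes. DESeq2 called Icam1 (adjusted p = 4.58e-06), limma called 0 members, and edgeR called Icam1 when no filter on low counts was used (adjusted p = 0.0437) and when either P1 mouse was left out (adjusted p = 0.0459 without the female and 0.0460 without the male). The other 11 alternatives did not call it, with adjusted p-values of up to 0.967, reached by edgeR without the normal P7 male. Over all alternatives its log2 difference ranged from 1.86 to 2.85. The 6 immune markers summed to 1.46 and 38.1 CPM in the normal mice and 6.98 and 30.8 CPM under hyperoxia, and their part in the Icam1 result was not tested.

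Car4+ capillaries and proliferative EC showed the same order of values. In Car4+ capillaries Icam1 had 244 and 58.1 CPM in the normal mice and 405 and 450 CPM under hyperoxia, a log2 difference of 1.35 (SE 1.03, edgeR adjusted p = 0.860; 0.73 without the normal male and 2.55 without the normal female), and within the males' run it had 132 and 450 CPM. In proliferative EC it had 49.9 and 70.8 CPM and 230 and 156 CPM under hyperoxia, a log2 difference of 1.67 (SE 0.62, edgeR adjusted p = 1.00), and 80 and 156 CPM within the males' run. The groups did not overlap in either class. Thinned shares of Car4+ cells with Icam1 were 38.1% and 41.7% in the normal mice and 47.4% and 62.2% under hyperoxia. EdgeR called 0 of 4 tested members and 0% of 12284 genes in Car4+ capillaries, with 0 members at an unadjusted p under 0.05. In proliferative EC it called 0 of 5 and 0% of 13102 genes, with 1 member and 2.59% of genes under 0.05. DESeq2 and limma called 0 members in both.

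Venous EC, which had the highest Icam1 levels, showed no such order. Icam1 had 321 and 827 CPM in the normal female and male and 1105 and 401 CPM under hyperoxia, so the sexes moved in opposite directions and the groups overlapped. Thinned shares of venous cells with Icam1 were 57.1% and 91.3% in the normal mice and 100% and 96.7% under hyperoxia. Sele had 0 and 41.5 CPM in the normal mice and 17.9 and 98.3 CPM under hyperoxia, which overlapped, and Vcam1 and Selp overlapped as well. Of 6 members edgeR called 0, and of 12326 genes 0%, and for 0 members was the unadjusted p under 0.05. DESeq2 and limma called 0.

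The difference between the classes was tested by an interaction term in a fit that also held each mouse. For Icam1 the hyperoxia difference in venous EC minus that in Car4- capillaries had a log2 value of -1.99 (SE 0.53, unadjusted p = 0.00673, edgeR adjusted p = 1.00). Against Car4- capillaries the Car4+ difference had a log2 value of -0.75 (SE 0.70, edgeR adjusted p = 1.00). EdgeR called 0 of 6 members in the venous interaction and 0% of 13379 genes. Unadjusted, 2 members and 3.61% of genes had p under 0.05. DESeq2 called 1 member, Icam1 (adjusted p = 0.0287), among 165 genes, and limma 0 members. In the Car4+ interaction edgeR called 0 of 4 members and 0% of 13240 genes, with 0 members under 0.05, and DESeq2 and limma called 0. Whether the Icam1 difference of venous EC departed from that of Car4- capillaries thus depended on the tool.

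In venous EC under hyperoxia the groups did not overlap for 2 of 6 members, Cd34 and Icam2. The share of all genes without overlap was not counted, so this count has no background. EdgeR called 0% of genes there. Cd34 had 263 and 308 CPM in the normal mice and 968 and 377 CPM under hyperoxia, a log2 difference of 1.22 (SE 0.62, edgeR adjusted p = 1.00; 0.54 without the hyperoxia female). In the males' run the values were 308 and 377 CPM. The 8 mesenchyme markers summed to 1.31 and 50.6 CPM in the same normal mice and to 113 and 116 CPM under hyperoxia, and their part in the Cd34 result was not tested. Icam2 had 847 and 881 CPM in the normal mice and 1191 and 1475 CPM under hyperoxia. In Car4- capillaries the groups overlapped for both genes, with Cd34 at 1690 and 1544 CPM against 2631 and 1245 CPM. The hyperoxia female thus had more Cd34 than both normal mice in each of these classes, and the hyperoxia male more in venous EC and less in Car4- capillaries.

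**Figure D5:**
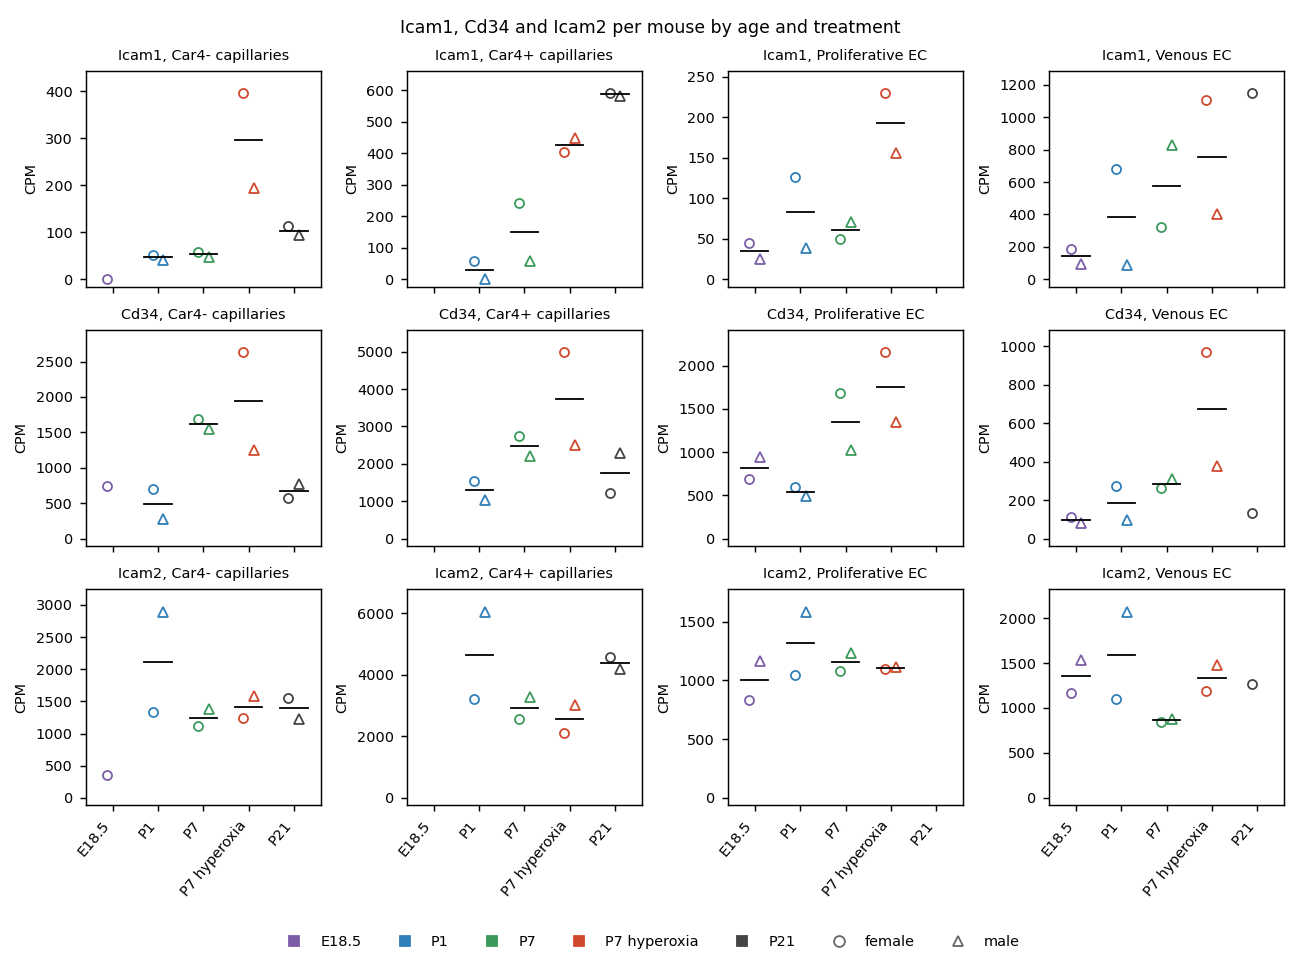
Icam1, Cd34 and Icam2 (CPM, linear axes) in 4 classes of EC by age and treatment; points are single mice with at least 8 cells (circles female, triangles male) and black lines the mean of the 2 mice of a group. Icam1 under hyperoxia lies above P7 in Car4- (396 and 195 against 58.1 and 47.7 CPM), Car4+ and proliferative cells and overlaps with P7 in venous EC, and Cd34 in Car4- capillaries is higher at P7 than at P1 and P21.

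Other genes of leukocyte capture were counted from 5 lists: 16 genes of rolling and capture, 8 of chemokine presentation, 14 of passage between cells, 16 of cytokine input and NF-kB, and 4 of storage and release. In Car4+ against Car4- capillaries, 9 genes of rolling and capture were tested, of which 5 were called higher and 2 lower, where 455 of all 11858 genes were called higher and 617 lower, with a list median log2 difference of 0.60 against -0.30 over all genes. Chst2 and Chst1, sulfotransferases that modify selectin ligand sugars, had 408 against 35.7 CPM (log2 3.95, edgeR adjusted p = 7.24e-06) and 250 against 12.2 CPM (log2 4.84, edgeR adjusted p = 4.76e-05). Podxl, a sialomucin related to Cd34, had 402 against 283 CPM (edgeR adjusted p = 0.0333). Cd44, a hyaluronan receptor, was lower, at 1.82 against 64.7 CPM (edgeR adjusted p = 0.00251). The chemokine gene Cx3cl1 was called higher in Car4+ cells and Cxcl12 lower.

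In venous EC against Car4- capillaries the 4 genes of storage and release were tested and 3 were called higher, where 3.23% of all genes were called in either direction. These were Vwf, whose protein fills the granules that hold P-selectin, at 2773 against 57.7 CPM (edgeR adjusted p = 0.00134), the granule membrane gene Cd63, at 134 against 38.4 CPM (edgeR adjusted p = 0.0110), and Rab27a, a GTPase of granule release, at 136 against 28.0 CPM (edgeR adjusted p = 0.0308). The list median was 2.32 against -0.09 over all genes, and Vwf is also among the venous markers. Of 8 rolling and capture genes tested, 2 were called lower (St3gal6 and Podxl) and 0 higher. Of 14 genes of passage between cells, Jam2 was called higher, at 483 against 197 CPM (edgeR adjusted p = 0.00145), and Cdh5 lower.

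Between venous EC and arterial EC I, Cxcl1, a chemokine for neutrophils, was called higher in venous EC, at 94.1 against 0.952 CPM (edgeR adjusted p = 0.00951), and Cxcl12 lower (edgeR adjusted p = 0.000144). Of the cytokine input and NF-kB list, 0 of 15 genes were called here, where 1.56% of 9891 genes were called. Positive log2 values were found for 12 of them, with a list median of 1.16 against 0.34 over all genes. Under hyperoxia none of the 5 lists had a gene called by edgeR in Car4-, Car4+, venous or proliferative cells. Of all genes edgeR called only 2 in Car4- capillaries and 0 in each of the other classes, so lists without a call say little. In Car4- capillaries under hyperoxia 0 of 15 tested genes of cytokine input and NF-kB were called, as were 0.0136% of 14660 genes. Unadjusted, 1 gene of the list and 5.52% of all genes had p under 0.05 by edgeR. The list median was -0.03 against -0.01 over all genes.

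Genes with the most similar profile were sought over 50 sums of 1 label and 1 mouse, by Pearson's r of log2(CPM + 1), among 7059 genes with a mean of at least 20 CPM. The sums of a mouse share its library preparation and run, and r is a description. Cd34 was most like Foxf1 (r = 0.84), Prdm1 (0.82) and Tspan13 (0.81). Icam2 was most like Gstm1 (0.83), Ly6a (0.81) and Tmem176a (0.79). Icam1 was most like Rchy1 (0.71), Alg1 (0.70) and Rcan1 (0.69). Sele and Selp both had Cytl1 first, at 0.74 and 0.57, and Mfap5 second, at 0.70 and 0.55, and Vcam1 had Mfap5 first at 0.62. Among the members themselves r was highest for Vcam1 with Sele and with Selp, 0.65 in both, and Icam1 and Icam2 had 0.22.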

How the data were processed

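Single EC of distal mouse lung were sequenced by a plate-based method with Tn5 and without molecular identifiers, per the labels' protocols. The deposited table holds raw read counts per gene and cell. STAR 2.5.2b, HTSeq 0.10 and the build GRCh38 are named in the submitters' processing notes, and GRCh38 is a human assembly. Whether counting used strand is not given in the sources used here. Subtype labels and mouse names came from the labels.

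Reads were summed per mouse and class over at least 8 cells. The Car4- class joins the Early and Late labels. Sums were tested with edgeR 4.0.16 (R 4.3.3; TMM, filterByExpr, quasi-likelihood F test), with Benjamini-Hochberg adjustment over all genes tested and a threshold of 0.05. All usable groups of a class shared 1 fit, and comparisons between classes had the mouse as a term. With 2 mice per group, p-values measure the spread between these samples. The procedure was tested on simulated data. Alternatives were DESeq2 1.42.0, limma 3.58.1 on the mean of per-cell CPM, RLE scaling, no filter, CD31-sorted cells alone, cells thinned to 50000 reads, sex as a block, no mouse term, normal mice alone and each mouse left out. Levels used Python 3.11.15, numpy 2.4.6, pandas 2.3.3 and scipy 1.17.1.

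A fold change is printed for a member that was called, or whose mice did not overlap with a log2 difference of at least 1. Interactions are given for Icam1 in either case. The members, lists and markers were chosen with earlier results of these data known. Coordinates come from the GENCODE M21 annotation, and promoters from RefSeq GRCm38.p6.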

Additional observations from a re-analysis of the deposited data

Results flagged for a closer look

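Within a label, the highest or lowest mouse was compared with its nearest neighbour by Dixon's ratio for 39 pairs of a gene and a label, and 14 had a highest mouse that stood apart. The limits used set apart about 1 in 20 groups by chance only where values are normally distributed. The ratios were taken on CPM without a log scale, and some values came from few reads. The share that chance sets apart here is thus not known. The mice of a label also span ages and treatment, so they are not replicates of 1 condition.

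Cd34 stood apart in the hyperoxia female in Car4+ capillaries (4982 CPM, the next mouse 2754) and in venous EC (968 CPM, the next 377). Icam2 stood apart in Early Car4- capillaries of the P1 male (2897 CPM, the next 1550). In the P21 female, venous EC had 882 CPM of Vcam1 (the next 187) and 295 CPM of Selp (the next 144).

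The other cases were low levels from few reads or cells. Vcam1 stood apart in arterial EC I of the P1 female (29.4 CPM, the next 0.430), in Early Car4- capillaries of the hyperoxia male (1.69 CPM, the next 0.498) and in lymphatic EC of the E18.5 male (3.47 CPM, the next 0.519). It also did so in proliferative EC of the P1 male, at 15.9 CPM against 1.41 in the next mouse. Selp stood apart in arterial EC I of the hyperoxia male (11.4 CPM, the next 2.56), in lymphatic EC of the hyperoxia female (2.70 CPM, from 20 reads) and in Late Car4- capillaries of the P1 female (0.664 CPM, from 4 reads). In Car4+ capillaries of the hyperoxia male Selp had 0.0671 CPM, from 2 reads. Sele stood apart in proliferative EC of the E18.5 female (2.58 CPM, the next 0.0375).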

How the results depend on the processing

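Of 259 recomputed counts of members called, 235 were scored as unchanged and 24 as changed, where a move from 2 to 3 was scored as unchanged. Of 262 recomputed fold changes of named members 10 changed their call and 0 reversed. Of 55 recomputed levels 2 were scored as changed, both of Selp in arterial EC II. A level was scored as changed if it moved by at least 1 SD over mice. Leaving out 1 mouse cannot move a mean that far, and arterial EC II, with 1 mouse, has no SD and was always scored as changed. This count thus does not show that levels were stable: venous Vcam1 fell from 144 to 52.1 CPM without the P21 female. With DESeq2 the count of members called was 2 for Car4- capillaries from P1 to P7, 1 from P7 to P21, 1 under hyperoxia, 1 for embryonic EC against Car4- capillaries, 5 for venous EC against Car4- capillaries, 3 against arterial EC I and 1 for the venous interaction. Without the filter it was 1 for Car4- capillaries under hyperoxia, 1 for Car4+ capillaries from P1 to P7 and 2 for venous EC against Car4- capillaries. For Car4+ against Car4- capillaries it was 3 without the filter. With limma it was 1 for embryonic EC, 2 for venous EC against Car4- capillaries and 1 against arterial EC I. With RLE scaling it was 2 for venous EC against Car4- capillaries, and with thinned cells 2 there and 1 against arterial EC I. The cause of these changes was not tested. Over the 18 comparisons edgeR called 0 to 1072 genes, DESeq2 119 to 3273 and limma 0 to 1985.

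Leaving out each mouse gave 0 to 1 members for Car4- capillaries under hyperoxia (1 without either P1 mouse), 0 to 1 for Car4+ capillaries from P1 to P7 (1 without the P1 female), 1 to 3 for venous EC against Car4- capillaries (3 without the E18.5 female) and 0 to 1 for venous EC against arterial EC I (1 without the P1 male or the hyperoxia male). For Car4+ against Car4- capillaries, leaving out each mouse gave 2 to 3 members (3 without the P1 male). Sex as a replicate block left the count at 0 in all 12 comparisons of age and hyperoxia that it was fitted to. Without the mouse as a block, 2 members were called for venous EC against Car4- capillaries and 1 for Car4+ against Car4- capillaries. Levels of Sele, Selp and Vcam1 are limited by the few cells that carry them.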

Other observations

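Some cells lay in sums too small for the comparisons. The 10 cells labelled proliferative venous EC held 3871 reads of Icam1, 137 of Selp, 153 of Vcam1 and 0 of Sele, and after thinning Icam1 was read in 9 of the 10 and Vcam1 in 3. The P21 male had 4 venous EC, which held 7625 reads of Vcam1 and 6430 of Icam1, each in 3 cells. Cells labelled nonproliferative embryonic EC were also present at P1, where 1 cell of the female mouse held 858 reads of Sele and 1 cell of the male mouse 1764.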
